A study of Homo sapiens with 8 samples.

Results

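The genes described here belong to the first wave of transcription after a stimulus: EGR1, EGR2 and EGR3, NR4A1, NR4A2 and NR4A3, IER2, IER3 and IER5, and GEM. They were taken by symbol, each matched 1 row, and they make up 10 of the 20323 genes in the deposited table. The cells were H2452, an established line from a human pleural mesothelioma of the biphasic type, with the genotype given as wt and grown in medium with fetal bovine serum. One group of 4 libraries came from cells given DPT (deoxypodophyllotoxin) at 20 nM, a tubulin-binding compound from plants, and the other group of 4 came from cells given its solvent DMSO. Both were sampled at 48 h, the series calls the replicates biological, and the labels give no culture day.

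Immediate-early genes are transcribed from factors already present in the cell, so their messages appear within minutes of a growth factor, a calcium signal or a stress, and usually fade quickly because the messages are short-lived. The EGR genes encode zinc finger transcription factors, the NR4A genes encode orphan nuclear receptors that work without a classical ligand, the IER genes encode small regulatory proteins, and GEM encodes a small GTPase of the RGK family that restrains calcium channels. The MAP kinase pathway reaches them through SRF, which binds the CArG box, and cyclic AMP and calcium reach them through CREB, which binds the cyclic AMP response element (CRE).

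The 300-base promoter windows of RefSeq (GRCh38.p14, from 250 bases before to 50 bases after a start site) covered 6 of the 10 genes in 9 windows. There was no window for EGR3, NR4A2, IER3 or GEM. The 4 windows that held a CArG box or a CRE half-site are printed 5' to 3' on the strand of the gene. Those letters, the sequences that link early genes to SRF and CREB, are in capitals. The EGR1 window is chr5:138465229-138465528 (+), the EGR2 window is chr10:62816317-62816616 (-), the NR4A3 window is chr9:99821635-99821934 (+) and the IER2 window is chr19:13150161-13150460 (+).
EGR1: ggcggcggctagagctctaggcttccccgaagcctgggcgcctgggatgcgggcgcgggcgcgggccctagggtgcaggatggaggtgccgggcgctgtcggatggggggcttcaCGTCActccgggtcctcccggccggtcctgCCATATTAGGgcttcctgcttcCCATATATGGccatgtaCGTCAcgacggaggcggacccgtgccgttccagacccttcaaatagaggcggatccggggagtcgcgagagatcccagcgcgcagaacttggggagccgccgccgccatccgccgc
EGR2: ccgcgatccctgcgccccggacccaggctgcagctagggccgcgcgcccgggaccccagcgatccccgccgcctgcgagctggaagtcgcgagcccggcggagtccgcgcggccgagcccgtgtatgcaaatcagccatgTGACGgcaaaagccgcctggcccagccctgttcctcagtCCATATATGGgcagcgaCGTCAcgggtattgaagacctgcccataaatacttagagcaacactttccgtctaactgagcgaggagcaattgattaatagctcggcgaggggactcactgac
NR4A3: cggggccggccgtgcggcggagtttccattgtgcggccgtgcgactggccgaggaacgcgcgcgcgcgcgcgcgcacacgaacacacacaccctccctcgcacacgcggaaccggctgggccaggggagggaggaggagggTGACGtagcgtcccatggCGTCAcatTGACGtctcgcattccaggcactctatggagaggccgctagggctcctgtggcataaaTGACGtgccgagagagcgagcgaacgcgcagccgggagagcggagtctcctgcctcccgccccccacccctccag
IER2: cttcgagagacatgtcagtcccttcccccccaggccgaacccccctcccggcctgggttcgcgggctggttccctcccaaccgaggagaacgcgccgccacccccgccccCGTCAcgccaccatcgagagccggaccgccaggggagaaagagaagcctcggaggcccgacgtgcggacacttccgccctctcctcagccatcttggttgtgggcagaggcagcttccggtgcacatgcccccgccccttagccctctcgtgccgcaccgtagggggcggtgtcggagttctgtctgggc

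EGR1 held 2 CArG boxes, CCATATTAGG from position -105 to -96 relative to the start and CCATATATGG from -83 to -74, beside 2 CRE half-sites (TGACG on either strand). The third of the EGR2 windows held the letters CCATATATGG once, from -71 to -62, and 2 half-sites, while the other 2 EGR2 windows held neither. NR4A3 had 4 half-sites and no CArG box, and IER2 had 1 half-site. The IER5 window and both NR4A1 windows held neither, and sequence outside the windows, including any other start site, was not searched. Among 35116 RefSeq windows, 1.29% held a CArG box and 24.6% a half-site. The full CRE (TGACGTCA, which contains the half-site, in 1.85% of windows), the NR4A element NBRE (AAAGGTCA, 1.22%), the EGR site (GCGGGGGCG or GCGTGGGCG, 5.77%) and TATAAA (11.5%) were searched on both strands and were in none of the 9 windows. A match of letters is a description of the sequence and was not tested for binding.

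**Figure D1:**
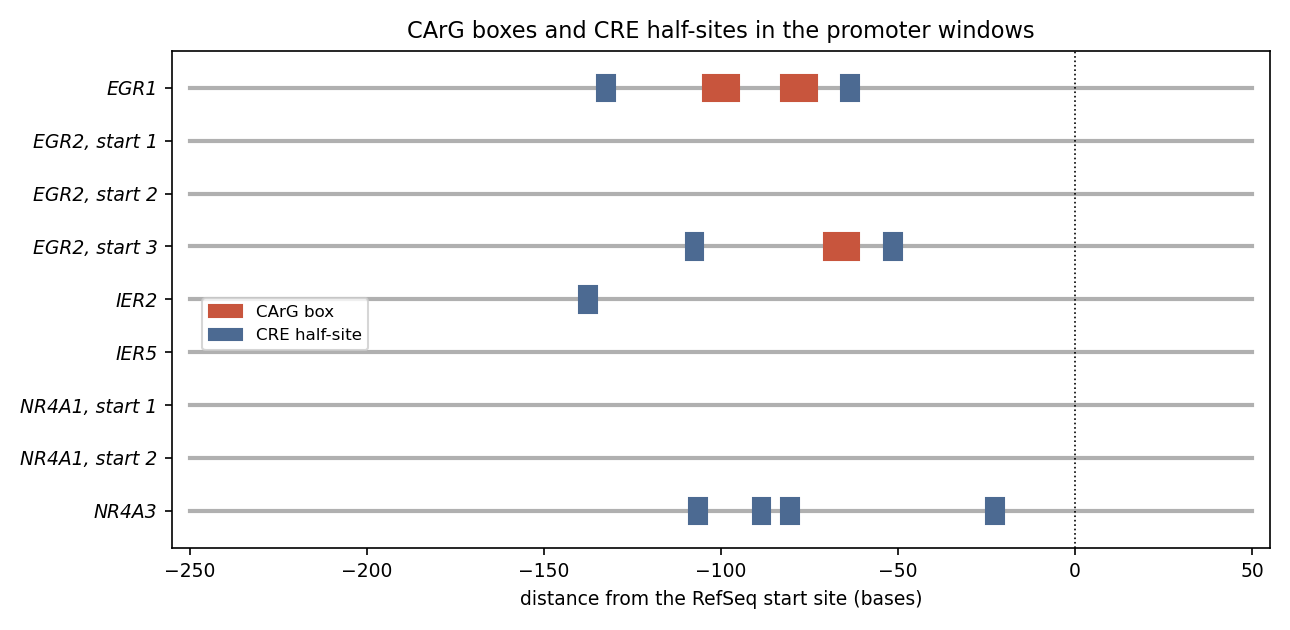
Positions of CArG boxes and CRE half-sites (coloured blocks) in the 9 promoter windows, by distance in bases from the RefSeq start site (dotted line). EGR1 has 2 CArG boxes and the third EGR2 window has 1, and NR4A3 has 4 half-sites.

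Several of these genes are compact. In GENCODE 29 (GRCh38), the EGR1 gene spans 3.83 kb (chromosome 5, 138465490 to 138469315) and IER3 1.36 kb (chromosome 6, 30743199 to 30744554). IER2 spans 4.49 kb (chromosome 19, 13150415 to 13154908) and IER5 4.19 kb (chromosome 1, 181088712 to 181092899). The principal transcript has 2 exons in EGR1 and in IER3, and 1 exon in IER2 and in IER5. That exon covers 2934 bases of the IER2 span. A span of up to 5 kb was found in 4 of the 10 genes and in 7.7% of 12586 tested protein-coding genes, whose principal transcripts had a median of 9 exons. EGR2 (chromosome 10, 62811996 to 62919900) spans 107.91 kb, with 2 exons in its principal transcript. EGR3 spans 5.64 kb with 2 exons, and GEM 13.1 kb with 5. The median span of the tested protein-coding genes was 33.7 kb. The NR4A genes have more exons, with 8 in NR4A1 (chromosome 12, 52022832 to 52059507), 8 in NR4A2 (chromosome 2, 156324432 to 156342348) and 9 in NR4A3 (chromosome 9, 99821855 to 99866891). They span 36.68, 17.92 and 45.04 kb in that order.

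Library totals were 14964432 to 17205391 counts, so 3 counts corresponded to 0.174 to 0.2 CPM (counts relative to the library total, in millionths). Of the 10 mesothelial and keratin markers, 9 were above 1 CPM in every library, the exception being KRT5. KRT18 and UPK3B, 2 of the 10, fell in DPT, where 5.29% of all tested genes fell. Without DMSO replicate 3 and DPT replicate 2, 7 fell and 1 rose, where 17.1% of all genes fell and 17% rose. The 6 leukocyte genes summed to 8.23 to 26.6 CPM in DMSO and 6.23 to 17.9 CPM in DPT, nearly all of it CD14 (5.39 to 26.3 CPM), while PTPRC reached 0.538 CPM at most. CD14 was not called with all 8 libraries (edgeR adjusted p = 0.41) and fell without the pair (adjusted p = 0.000108). The fibroblast genes DCN and LUM had no counts. DMSO replicate 3 and DPT replicate 2, called the pair below, stood apart from the other 6 libraries: their 10 interferon-stimulated genes summed to 1410 to 2110 CPM against 8010 to 9020 CPM, and their 10 mitosis genes to 1950 to 2130 CPM against 1120 to 1310 CPM. The 6 fibroblast genes summed to 343 to 415 CPM in DMSO and 119 to 206 CPM in DPT, where 2 of 3 tested fell, and 1 of 3 tested endothelial genes rose. In the same fit 5.29% of all genes fell and 5.68% rose. The endothelial gene that rose was KDR, at 0.415 ± 0.201 CPM in DMSO and 2.54 ± 1.74 CPM in DPT (SD, n = 4 per group). Its DMSO mean was below the low-count filter's minimum of 0.621 CPM, so its level in DPT helped it into the test. The part of these markers in the results was not tested. The values of the 10 genes, where they could be fitted, and the counts of each gene list are also given from the 6 libraries without the pair.

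Early-response messages were higher after DPT. Of the 8 genes with enough counts to be tested, EGR1, NR4A1, NR4A3, IER2, IER3 and GEM rose and 0 fell (edgeR quasi-likelihood test with Benjamini-Hochberg adjustment over 12648 genes, adjusted p under 0.05). Over all tested genes 5.68% rose and 5.29% fell. EGR1, NR4A1, NR4A3 and GEM, 4 of the 8, rose at least 2-fold, as did 1.13% of all genes. An unadjusted edgeR p under 0.05 was reached by 7 higher and 0 lower of the 8, and by 1713 higher and 1644 lower of all 12648 tested genes. The adjusted calls were 7 higher and 0 lower with DESeq2, and 6 and 0 with limma on log2 CPM. Over all genes those calls were 1016 and 988 with DESeq2, and 720 and 680 with limma. The filter on low counts asks for a minimum level in 4 libraries. NR4A1 reached it in 4 DPT and 2 DMSO libraries and NR4A3 in 4 DPT and 1 DMSO library, so their high level in DPT helped them into the test, and counts over all 8 genes are given as a description. Of the 6 genes above the filter's minimum in every library, 4 rose, 2 of them (EGR1 and GEM) at least 2-fold, with a median log2 fold change of 0.82 over the 6 against -0.0018 over all tested genes.

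With a term for the pair all 8 tested genes rose, among them the 6 that passed the filter in every library, where 16.9% of all genes did and 17% fell. In the 6 libraries without the pair all 8 rose as well, where 17% of all genes did and 17.1% fell. The pair was chosen from these data, so p-values from these fits, here and below, are given as a description. In 7 of the 10 genes, each of the 4 DPT libraries exceeded each of the 4 DMSO libraries in CPM, as in 9.5% of all tested genes. NR4A2, 1 of the 7, overlapped between the groups in the deposited FPKM. When libraries were scaled by their totals alone, 64.9% of all calls were rises against 51.8% with TMM scaling, and limma on log2(FPKM + 0.1) gave 68.7%. Of the 8 genes, 6 were called under each of those 3 settings, and 5 with limma on FPKM at a pseudocount of 1. In bulk RNA, more message per cell and more cells carrying the message cannot be told apart.

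**Figure D2:**
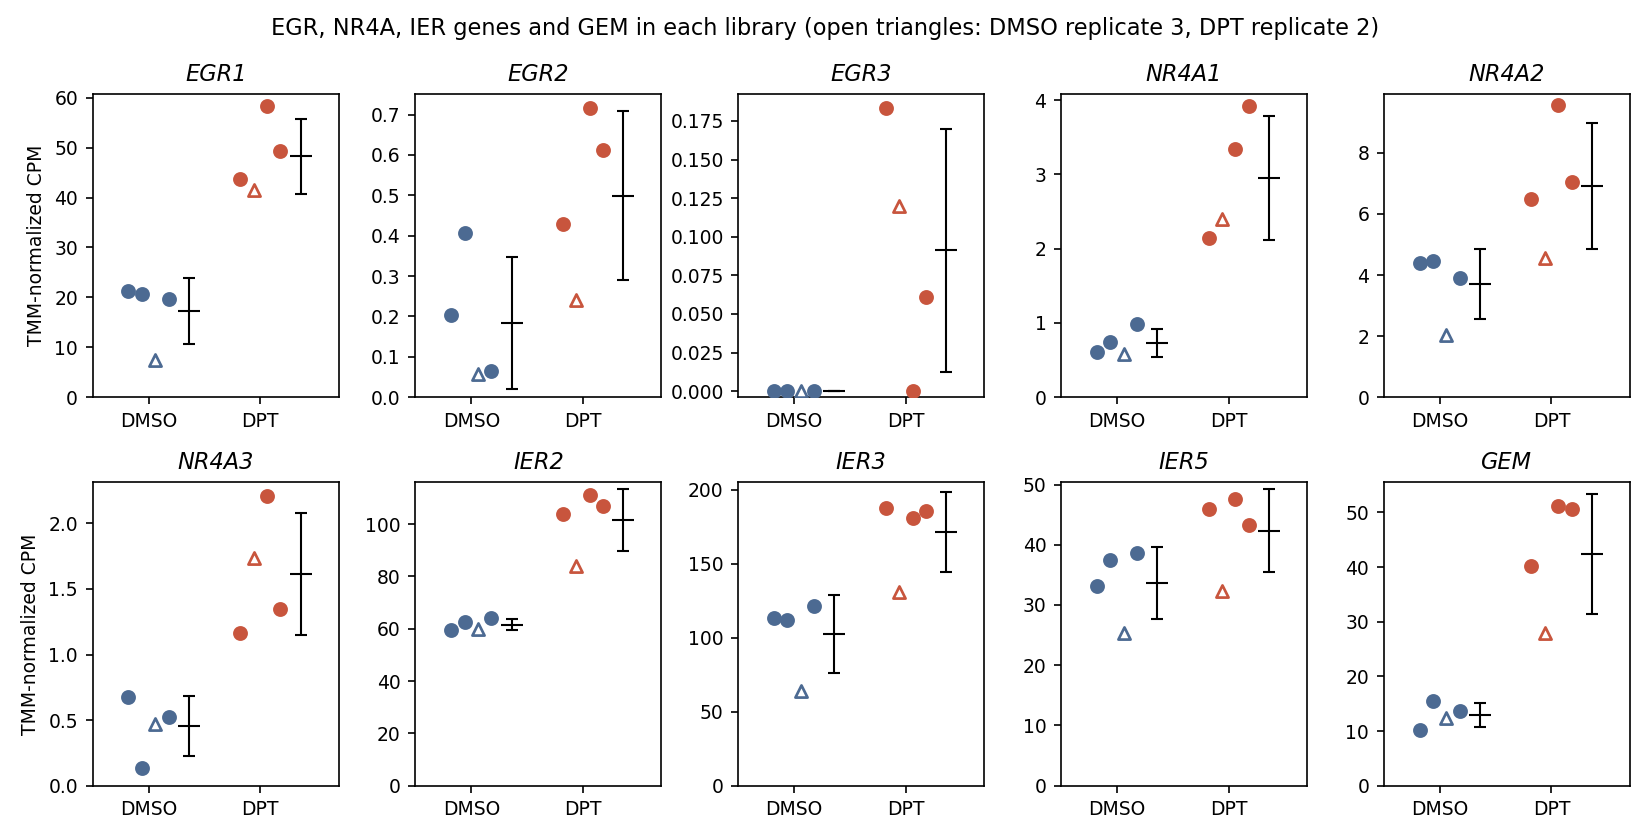
Level of each gene in TMM-normalized CPM (linear axis) in the 4 DMSO and 4 DPT libraries, with mean and SD at the right of each group. Open triangles mark the pair, DMSO replicate 3 and DPT replicate 2, in which EGR1 measured 7.42 and 41.5 CPM.

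EGR1, the zinc finger factor that growth factors and stress induce most readily, measured 21.3, 20.7, 7.42 and 19.6 CPM in DMSO replicates 1 to 4. In DPT replicates 1 to 4 it measured 43.8, 41.5, 58.3 and 49.3 CPM. The groups did not overlap, and the DMSO library of the pair was far below the other 3. The rise was 2.81-fold (log2 fold change 1.49, SE 0.277, edgeR adjusted p = 0.0104), from 17.2 ± 6.58 to 48.2 ± 7.46 CPM (SD, n = 4 per group). Without the pair it was 2.46-fold (adjusted p = 1.68e-08), and the ratio of the 2 libraries of the pair was 5.6. The call held in each of the 8 fits that left out 1 library (adjusted p 0.000656 to 0.0378).

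EGR2, a paralog best known from Schwann cell myelination and T cells, was near the limit of detection. Its counts were 3, 6, 1 and 1 in DMSO replicates 1 to 4 and 7, 4, 12 and 10 in DPT replicates 1 to 4. In 2 DPT libraries it reached the filter's minimum of 0.621 CPM, unscaled, and the gene was not tested in the model. The summed counts of 11 and 33 gave a ratio of 2.81 after scaling (95% exact conditional interval 1.38 to 6.16, for counting error only). Over the libraries the groups overlapped and the difference in CPM did not pass (p = 0.0571 by a two-sided exact permutation test, whose smallest possible p is 0.0286).

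EGR3, a further paralog, had 0 counts in all 4 DMSO libraries, which allows up to 3 counts in each. In DPT replicates 1 to 4 it had 3, 2, 0 and 1 counts. No fold is given, since no library exceeded that limit, and a difference was not detectable at this depth (p = 0.143, exact permutation, two-sided). EGR4, which was not among the 10 genes, had 0 counts in all 8 libraries.

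NR4A1 (Nur77), the nuclear receptor of this family first linked to growth factor response and to cell death in lymphocytes, had the largest fold change of the 8 tested genes from low counts. Its counts were 9, 11, 10 and 15 in DMSO replicates 1 to 4 and 35, 40, 56 and 64 in DPT replicates 1 to 4. Every DPT library had more than 2 times the count of every DMSO library. The level went from 0.732 ± 0.185 to 2.95 ± 0.83 CPM (SD, n = 4 per group), a 4.01-fold rise (log2 2.00, SE 0.295, edgeR adjusted p = 0.00397). The rise was 3.98-fold without the pair and 4.11-fold within it, and the call held without any 1 library (adjusted p 0.00258 to 0.0194).

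NR4A3 (NOR1) was the least abundant of the tested genes, with 10, 2, 8 and 8 counts in DMSO replicates 1 to 4. It had 19, 29, 37 and 22 counts in DPT replicates 1 to 4. The groups did not overlap. It rose 3.53-fold from 0.452 ± 0.229 to 1.61 ± 0.465 CPM (SD, n = 4 per group, edgeR adjusted p = 0.021), with 3.48-fold without the pair and 3.72-fold within it. The call was lost when replicate 4 of either group or DPT replicate 3 was left out (adjusted p 0.0508 to 0.0716).

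NR4A2 (Nurr1), known for its part in dopamine neurons and in inflammation, measured 4.4, 4.47, 2.04 and 3.89 CPM in DMSO replicates 1 to 4. In DPT replicates 1 to 4 it measured 6.49, 4.56, 9.57 and 7.05 CPM. The groups did not overlap in CPM, but the lowest DPT library, which is in the pair, was only just above the highest DMSO library. In the deposited FPKM they overlapped, with 1.49 in DPT replicate 2 and 1.789 in DMSO replicate 4. With all 8 libraries the 1.87-fold difference did not pass (log2 0.91, SE 0.287, edgeR adjusted p = 0.0743). It passed without the pair (1.81-fold, adjusted p = 0.00168), once the pair had its own term (adjusted p = 0.000567) and without DPT replicate 2 alone (adjusted p = 0.0241). The pair was chosen from these data, and 17% of all genes rose without it and 16.9% with the term. The retinoid X receptors RXRA and RXRB, with which NR4A1 and NR4A2 can form dimers, were not called (0 of 2 tested in either direction by edgeR, DESeq2 or limma, and 0 higher and 1 lower at an unadjusted p under 0.05). RXRA, at 53.4 CPM in DMSO and 47.5 CPM in DPT with no overlap between the groups, was called lower without the pair (edgeR adjusted p = 0.0487) and when the pair had its own term (adjusted p = 0.0304).

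**Figure D3:**
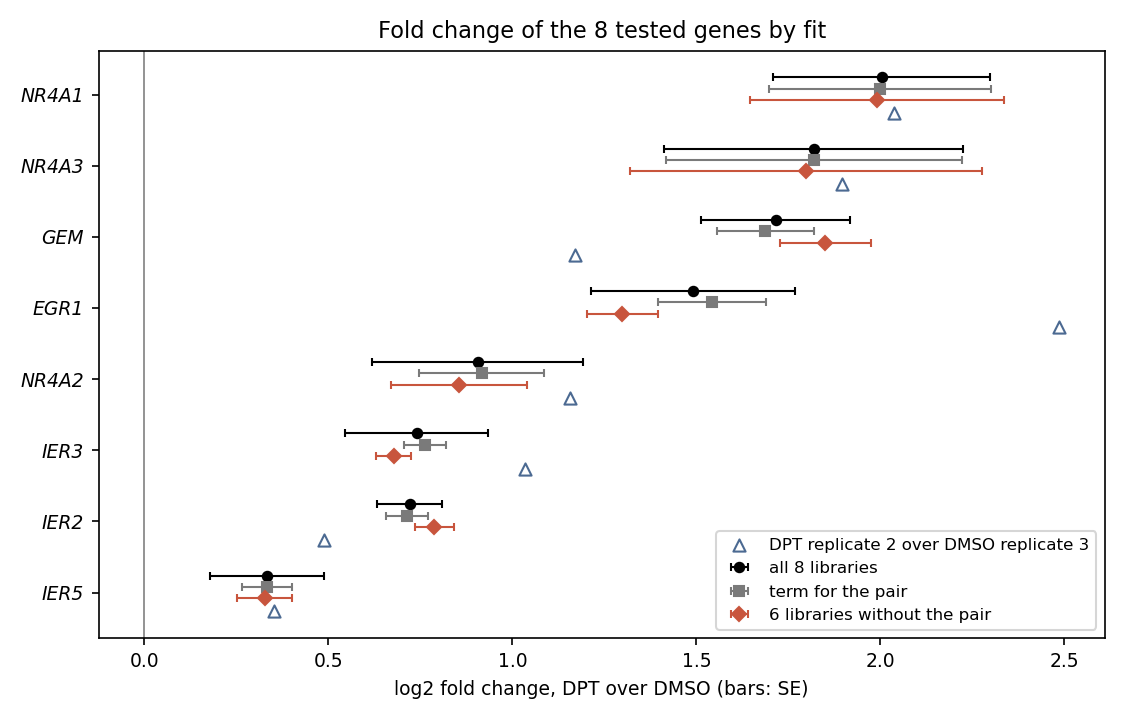
Log2 fold change of DPT over DMSO for the 8 tested genes, with its SE, from all 8 libraries, with a term for the pair and without the pair. Open triangles give the ratio of DPT replicate 2 to DMSO replicate 3, which was 5.6-fold for EGR1 and 2.25-fold for GEM.

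IER2, a nuclear protein of the early response, varied little among its DMSO libraries, at 59.7, 62.6, 60 and 64 CPM in replicates 1 to 4. In DPT replicates 1 to 4 it measured 104, 84.2, 111 and 107 CPM. The groups did not overlap, with DPT replicate 2 of the pair the lowest of its group. The rise was 1.65-fold, from 61.6 ± 2.06 to 101.5 ± 11.9 CPM (SD, n = 4 per group, edgeR adjusted p = 0.00178). It was 1.73-fold without the pair and 1.4-fold within it.

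IER3 (IEX-1), a short-lived protein that NF-kB and p53 can induce and that modulates cell survival, was the most abundant of the 10 genes. It measured 113.3, 112.2, 63.9 and 121.3 CPM in DMSO replicates 1 to 4 and 187.8, 130.8, 181.1 and 186 CPM in DPT replicates 1 to 4. Each library of the pair was the lowest of its group, and the groups did not overlap. IER3 rose 1.67-fold from 102.7 ± 26.2 to 171.4 ± 27.2 CPM (SD, n = 4 per group, edgeR adjusted p = 0.039). It rose 1.6-fold without the pair (adjusted p = 7.2e-09), and the ratio within the pair was 2.05. With 1 library left out the call held without DMSO replicate 3 or DPT replicate 2 and was lost without any of the other 6 (adjusted p 0.0623 to 0.11).

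IER5, which brings the phosphatase PP2A to the heat shock factor HSF1, measured 33.1, 37.4, 25.3 and 38.6 CPM in DMSO replicates 1 to 4. In DPT replicates 1 to 4 it measured 46, 32.4, 47.7 and 43.3 CPM. The groups overlapped because DPT replicate 2 lay below 3 of the DMSO libraries, while the other 3 DPT libraries exceeded every DMSO library. With all 8 libraries the difference of 1.26-fold did not pass (edgeR adjusted p = 0.204). Without the pair it was 1.25-fold and passed (adjusted p = 0.0028), in a fit where 17% of all genes rose. The ratio within the pair was 1.28.

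GEM, the GTPase, measured 10.2, 15.5, 12.4 and 13.7 CPM in DMSO replicates 1 to 4. In DPT replicates 1 to 4 it measured 40.1, 27.9, 51.2 and 50.6 CPM. The lowest DPT library was 1 of the pair and still exceeded the highest DMSO library. GEM rose 3.28-fold from 12.9 ± 2.2 to 42.5 ± 11 CPM (SD, n = 4 per group, log2 1.72, SE 0.201, edgeR adjusted p = 0.00145). The rise was 3.61-fold without the pair and 2.25-fold within it. By p it ranked 75 of 12648 genes, ahead of the other tested genes here. RRAD, a relative of GEM, had 14.7 CPM with the solvent and 18.7 CPM with DPT and was not called (edgeR adjusted p = 0.104, and 0.000624 without the pair).

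Partners through which GEM and IER5 act were tested as a list of 12, among them the GEM-interacting proteins GMIP and KIF9, calcium channel beta subunits, HSF1 and PP2A subunits. By edgeR 0 rose and 0 fell, as by DESeq2 and by limma on log2 CPM, and at an unadjusted p under 0.05 there were 2 higher and 1 lower. Over all 12648 genes 5.68% rose and 5.29% fell by edgeR, and 1713 were higher and 1644 lower at that unadjusted p. With 12 genes, 0 calls cannot be told from these shares. The median log2 fold change was 0.14. Without the pair 4 of the 12 rose and 1 fell, against 17% and 17.1% of all genes in that fit, the highest log2 fold change in the list being 0.35. Of the family relatives WT1, IER5L and RRAD, 0 of 3 were called by edgeR, DESeq2 or limma, with 1 higher and 1 lower at an unadjusted p under 0.05.

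For EGR1, DPT replicate 2 and DMSO replicate 3 differed by more than the other 6 libraries did. The log2 difference was larger within the pair by 1.18 (SE 0.221, edgeR interaction term, adjusted p = 0.011), a value that rests on 1 library of each group, was examined after the data were seen and follows the low EGR1 level of DMSO replicate 3. Over all genes 0.419% had a larger and 0.522% a smaller difference in the pair. For GEM (-0.68, adjusted p = 0.286), IER3 (0.36, adjusted p = 0.108) and IER2 (-0.30, adjusted p = 0.244) the term did not pass. With treatment in the model the log2 difference of the pair from the other libraries was -0.69 for EGR1, -0.88 for NR4A2, -0.66 for IER3, -0.51 for IER5, -0.48 for GEM, -0.40 for NR4A1 and -0.20 for IER2, while NR4A3 was at 0.11. These are given as a description because the pair was chosen from these data. The interferon and mitosis genes moved with the pair, and their part in these values was not tested.

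Per unit length, the deposited FPKM (a count scaled by gene length and library depth) set the 10 genes in an order from IER3 to EGR3. In DMSO the FPKM was 81.2 ± 20.3 for IER3, 30.5 ± 1.7 for IER2, 7.88 ± 1.36 for IER5, 5.86 ± 0.991 for GEM and 5.4 ± 2.05 for EGR1 (SD, n = 4). NR4A2 at 1.34 ± 0.495, NR4A1 at 0.341 ± 0.165, NR4A3 at 0.0828 ± 0.0392 and EGR2 at 0.0642 ± 0.0592 followed, and EGR3 was listed at 0. The libraries of IER5 and GEM overlapped, as did those of GEM and EGR1 and of NR4A3 and EGR2, so these neighbours were not separated.

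In DPT the order by FPKM changed in the middle, where GEM at 19.8 ± 5.18 and EGR1 at 15.6 ± 2.47 stood above IER5 at 10.2 ± 1.69 (SD, n = 4), with no overlap between EGR1 and IER5. IER3 at 140 ± 22.4 and IER2 at 52.3 ± 4.76 were again the highest. GEM and EGR1 overlapped, as did NR4A2 (2.36 ± 0.742) and NR4A1 (1.51 ± 0.284), and NR4A3 (0.302 ± 0.0957) and EGR2 (0.219 ± 0.145).

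**Figure D4:**
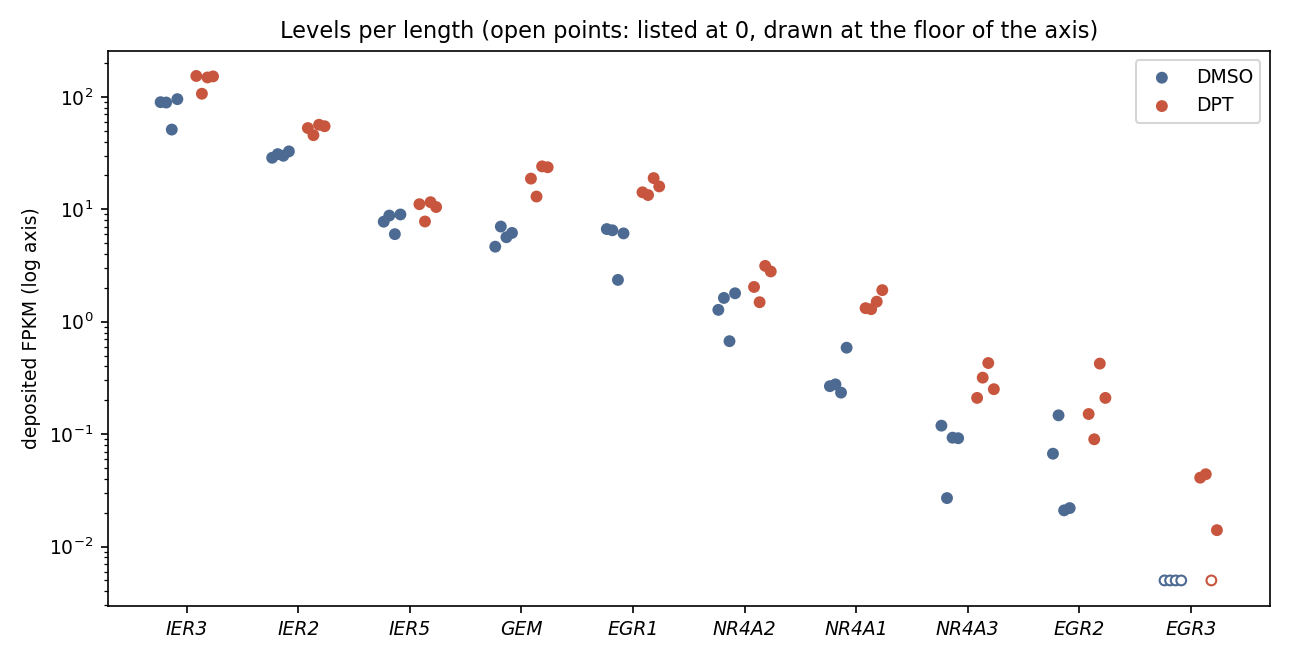
Deposited FPKM of the 10 genes in each library on a log axis, in the order of the DMSO means. IER3 is highest in both groups, GEM and EGR1 pass IER5 in DPT, and EGR3 is listed at 0 in every DMSO library.

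Together the 10 genes took 239.3, 250.5, 171.4 and 256.5 CPM, here without TMM scaling, in DMSO replicates 1 to 4. They took 437.6, 328.9, 473.5 and 455.6 CPM in DPT replicates 1 to 4. The means of 229.4 ± 39.3 and 423.9 ± 65 (SD, n = 4 per group) differed at the smallest p that the design allows (p = 0.0286, exact permutation, two-sided). The genes were chosen with earlier results of these data known, so this p is given as a description. IER3 supplied 43.5% and IER2 27.1% of this sum in DMSO, and 41% and 24.4% in DPT. GEM went from 5.67% to 10% of the sum and EGR1 from 7.16% to 11.6%.

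The wider immediate-early response was followed in 41 other genes, of which 39 were tested. Of these 19 rose and 1 fell (edgeR, adjusted over all genes), against 5.68% and 5.29% of all genes. Their median log2 fold change was 0.59. HBEGF, a ligand of the EGF receptor, rose 2.48-fold from 28.6 ± 3.33 to 71.1 ± 5.04 CPM (SD, n = 4 per group, edgeR adjusted p = 0.000159), and the stress factor ATF3 rose 2.67-fold and the MAP kinase phosphatase DUSP1 1.87-fold. FOSL2, a member of the FOS family, fell by 0.30 on the log2 scale, and its call was lost when DMSO replicate 1, 2 or 4 or DPT replicate 3 or 4 was left out (adjusted p 0.0544 to 0.0673). Without the pair 29 of 40 tested rose and 2 fell, where 17% of all genes rose and 17.1% fell. A term for the pair gave 28 of 39 higher and 2 lower, where 16.9% of all genes rose and 17% fell.

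**Figure D5:**
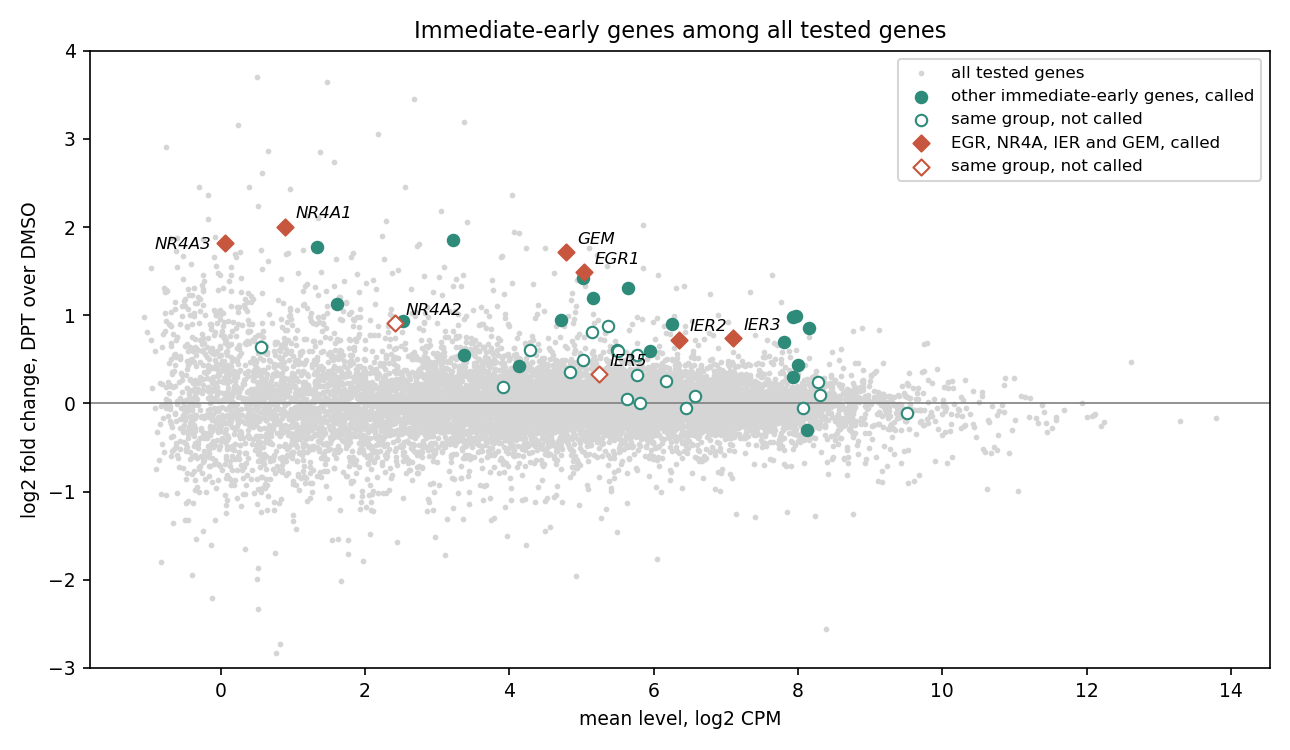
Log2 fold change of DPT over DMSO against mean level (log2 CPM) for all tested genes (grey), the 39 other immediate-early genes tested (circles) and the 8 tested genes of the EGR, NR4A and IER families with GEM (diamonds). Filled symbols passed an adjusted p of 0.05, as 6 of the 8 did.

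Early genes are driven by kinases and transcription factors of the MAP kinase, calcium and cyclic AMP pathways. Among 22 such genes tested, 4 rose and 0 fell by edgeR, where 5.68% and 5.29% of all genes did. There were 6 higher and 3 lower at an unadjusted p under 0.05, 4 and 1 by DESeq2 and 3 and 0 by limma. Over all 12648 genes those counts were 1713 and 1644, 1016 and 988, and 720 and 680. Without the pair 5 rose and 5 fell, against 17% and 17.1% of all genes, and with the term for it 6 rose and 3 fell. The median log2 fold change with all 8 libraries was -0.08. MEF2A, a calcium-responsive factor, rose 1.23-fold (edgeR adjusted p = 0.0109), ELK3, a partner of SRF, rose 1.29-fold (adjusted p = 0.0113) and the MAP kinase kinase MAP2K1 rose 1.25-fold (adjusted p = 0.014). CREM, a factor of the cyclic AMP pathway named here after its values were seen, was the fourth and rose 1.51-fold (adjusted p = 0.0484). Limma on log2 CPM called MEF2A, ELK3 and MAP2K1 but not CREM. MAP2K1 lost its call when DMSO replicate 1 or 2, or DPT replicate 4, was left out (adjusted p 0.0504 to 0.0525).

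EGR factors act with co-repressors, and targets of EGR1 have been reported. Of 13 such genes tested, 0 rose and 2 fell by edgeR, DESeq2 and limma alike, where 5.68% and 5.29% of all genes did by edgeR. The unadjusted edgeR counts at p under 0.05 were also 0 and 2, against 1713 and 1644 of all 12648 tested genes. The growth factor FGF2 fell by 0.33 on the log2 scale, from 306 ± 16.3 to 242.9 ± 17.1 CPM (SD, n = 4 per group, edgeR adjusted p = 0.0176). With 1 library left out, FGF2 lost its call in 4 of 8 fits, those omitting DMSO replicate 1 or any DPT library outside the pair (adjusted p 0.0507 to 0.0631). Limma on FPKM did not call FGF2 (lowest adjusted p 0.061). NAB2, the co-repressor that EGR factors themselves induce, is named after its values were seen: its level was 13.6 CPM with the solvent and 13.4 CPM with DPT (edgeR adjusted p = 0.892). NAB1, the other co-repressor listed and also named after its values were seen, had 75.8 and 67.9 CPM (edgeR adjusted p = 0.583). It was called lower without the pair (adjusted p = 0.0107). Without the pair 2 of the 13 rose and 3 fell, where 17% of all genes rose and 17.1% fell.

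The genes whose profile over the 8 libraries was most like the mean profile of the 8 tested genes were sought among 10322 genes with a mean of at least 5 CPM. Likeness was the root mean square difference of centred log2 CPM, which had a median of 0.654 over those genes. The 8 tested genes themselves lay at 0.257 (IER3) to 0.567 (NR4A3) from their mean profile. Likeness to the mean is therefore not likeness to each of them. A gene chosen in this way has to share the profile's higher DPT level, so the values are a description with no test. PPP1R15A, which encodes the phosphatase subunit GADD34 of the stress response, was closest at 0.079, with 65.4 ± 10.9 CPM in the DMSO group and 154.8 ± 28 CPM in the DPT group (SD, n = 4 per group). CDKN1A, the cell cycle inhibitor p21, followed at 0.107 with 17.2 ± 3.07 and 41 ± 5.98 CPM. TMEM171 (0.114), ZNF697 (0.119), the stress-induced sestrin SESN2 (0.141) and HSPBAP1 (0.151) came next.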

How the data were processed

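Total RNA came from 8 samples of H2452 cells and polyadenylated RNA was selected, per the labels' protocols. The authors deposited 2 values per gene and library, an expected count and FPKM, per the file headers, and 10.8% of the former were fractional. The submitters' processing notes name HISAT2, RSEM, DESeq2, fastp 0.18.0, StringTie 1.3.1 and the build hg38. What each tool did, the annotation and strand use: not given in the sources used here. Reads of overlapping genes may therefore be mixed. Columns were matched to samples by name.

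Expected counts were rounded to whole numbers and tested in edgeR 4.0.16 (R 4.3.3) with filterByExpr (minimum count 10, minimum total 15), TMM scaling and the quasi-likelihood test, with an intercept and a treatment term. A call is a Benjamini-Hochberg adjusted p under 0.05 over all tested genes. CPM is TMM-normalized, and SE belongs to the fitted log2 fold change. The script was tested on simulated counts drawn independently for each library. Those counts lacked the shared deviations of the pair, so that test does not cover them. Alternatives were other size factors, DESeq2 1.42.0, limma 3.58.1 on log2 CPM (prior count 2) and on log2(FPKM + 0.1) or log2(FPKM + 1), other filters, a replicate block, a term for the pair, its omission and each library left out. The genes, lists and alternatives were chosen with earlier results of these data known. Named genes are the 10, from each list up to 3 called genes a direction, by adjusted p, and the 6 most alike profiles; 1 gene that this rule names is not reported here. The interaction with the pair was added after the data were seen. Genes with 2 rows under 1 symbol were taken by their GENCODE 29 identifier.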

Additional observations from a re-analysis of the deposited data

Results flagged for a closer look

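In EGR1 and IER3, 3 values stood far from the other 3 libraries of their group, past Dixon's 95% limit for the gap as a share of the group's range. EGR1 measured 7.42 CPM in DMSO replicate 3 against 19.6 to 21.3 CPM in the other DMSO libraries, a gap of 0.878 of the range. IER3 measured 63.9 CPM in the same library against 112.2 to 121.3 CPM (0.841 of the range), and 130.8 CPM in DPT replicate 2 against 181.1 to 187.8 CPM in the other DPT libraries (0.883 of the range). Chance gives about 1 such value in 20 groups, and 19 groups were examined. The 3 values belong to the pair that stood apart over all genes.

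The DPT difference of EGR1 was larger by 1.18 on the log2 scale within the pair than in the other 6 libraries (edgeR interaction, adjusted p = 0.011). That value rests on 1 library of each group and restates in part the low level of DMSO replicate 3. The ratio of DPT replicate 2 to DMSO replicate 3 was 5.6 and the fold change without the pair was 2.46.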

How the results depend on the processing

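Among the 8 tested genes, 140 of 160 alternative values kept their direction and their side of the threshold, 13 lost the call, 7 gained it and 0 reversed. EGR2 and EGR3 had too few counts for such a test. Their counts limit what can be said of them. The cause of the changes that follow was not tested. Fits that leave out libraries also have fewer replicates, and the part of this in the changes was not tested either. The number of these genes that rose was 6, and 4 to 8 with 1 library left out. Over all genes, 718 rose and 669 fell. A term for the pair gave 2140 higher and 2156 lower, its omission 2158 and 2169, and with 1 library left out 332 to 1183 and 311 to 1108. With FPKM, 336 or 342 genes fell at a pseudocount of 0.1 or 1. Of the other immediate-early genes, 19 rose and 1 fell, and without the pair 29 rose. The number that fell was 2 with the term, 2 without the pair and 0 to 1 with 1 library left out. The summed share of the 10 genes was higher in DPT by 194.5 CPM, by 206.84 without the pair (exact permutation p = 0.1, the smallest that 3 against 3 libraries can give) and by 175.16 to 226.18 with 1 library left out (exact p 0.0286 to 0.0571).

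Replicate numbers are shared between the groups, but nothing in the labels says that they pair the samples. Deviations from the group means correlated at 0.204, -0.314, -0.396 and 0.209 for numbers 1 to 4, while DMSO replicate 3 and DPT replicate 2 correlated at 0.676. With the replicate block 171 genes rose and 174 fell, 3 of these 8 genes rose (EGR1 had an adjusted p of 0.0647), and of the other immediate-early genes 10 rose and 0 fell.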
